A study of Homo sapiens with 40 samples.

Results

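The expression of 10 inflammatory chemokine and cytokine genes was examined in HepaRG cells, a human hepatic cell line. The genes were CXCL8, CXCL1, CXCL2, CXCL3, CXCL5, CXCL6, CCL2, CCL20, IL6 and IL1B. They were chosen by name among the 56568 gene names of the deposited tables, and all 10 were found. The value of a gene was the sum of the FPKM (fragments scaled to transcript length and to the mapped fragments of the library) of the transcripts that carry its name.

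RNA sequencing had been performed on 40 libraries in 8 groups of 5. A solvent control was compared with 3 concentrations of PCB 126, namely 100 pM, 10 nM and 1 µM. Glyphosate had also been given at 3 doses (10 µg/L, then 1 mg/L, then 0.1 g/L), and Roundup at a single dose of 10 µg/L. PCB 126, a polychlorinated biphenyl of the dioxin-like kind, activates the aryl hydrocarbon receptor, glyphosate is a herbicide, and Roundup is a glyphosate-based formulation. All groups, the control included, were differentiated cultures kept in medium with 2% serum and 1% DMSO, and the exposure ran for 6 days, from day 8 to day 14. HepaRG cultures are a mixture of hepatocyte-like and primitive biliary cells of 1 line. The labels do not state whether the 5 libraries of a group came from separate cultures, so p-values measure the spread between these libraries only. They also do not state whether the Roundup dose refers to the product or to its glyphosate content.

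Chemokines are small secreted proteins that attract leukocytes. The CXCL genes studied here encode ligands of the neutrophil receptors CXCR1 and CXCR2, CCL2 attracts monocytes through CCR2, and CCL20 attracts CCR6-bearing lymphocytes and dendritic cells. In the liver, IL-1β and IL-6 act on hepatocytes to raise acute-phase proteins, and NF-κB is the transcription factor best known for switching on this whole group of genes.

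The titles number the libraries, and the numbers fall into 5 series (1 to 8, 19 to 26, 37 to 44, 55 to 62 and 73 to 80), each with 1 library of every group. Replicates 1 to 5 are named here by this series, which the labels do not call a batch. The FPKM total of a library ranged from 255292 to 513059. In 9 of the 40 libraries the 75th percentile of gene FPKM was low, between 0.712 and 1.11, compared with 1.45 to 2.29 in the other 31. In the PCB 126 experiment these were control replicate 5, 10 nM replicates 3 and 5, and 1 µM replicates 1 and 5. In the herbicide experiment they were, beside the same control replicate 5, glyphosate 10 µg/L replicate 5, glyphosate 0.1 g/L replicate 2 and Roundup replicates 4 and 5. The exposure was checked on CYP1A1, the classic target of the aryl hydrocarbon receptor, which was at 0 to 7.69 FPKM in the control libraries and at 85.2 to 389 FPKM at 1 µM. The library labelled 100 pM replicate 5 stood apart in its group, with CYP1A1 at 319 FPKM where the other libraries of that group were at 1.09 to 70.9.

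The 6 CXCL genes form a cluster on the long arm of chromosome 4, between positions 73740506 and 74099293 of GRCh38 in the deposited tables. CXCL8, CXCL6 and CXCL1 lie on the plus strand, and CXCL5, CXCL3 and CXCL2 on the minus strand. CCL2 lies on chromosome 17, CCL20 and IL1B on chromosome 2, and IL6 on chromosome 7. Their promoters were looked at because the 6 clustered genes share a short motif at nearly the same place. RefSeq promoters of GRCh38.p14, which run from 250 bases before to 50 bases after a gene's start, were found for 9 of the 10 genes, CCL2 being the exception. For the genes with a match to an NF-κB-type motif on their own strand, the 60 bases from 110 to 51 before the start are shown. They run 5′ to 3′ on the strand of the gene, with the match in capitals. CCL20 and IL1B are therefore not shown.

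CXCL8 (chr4:73740459-73740518, plus strand): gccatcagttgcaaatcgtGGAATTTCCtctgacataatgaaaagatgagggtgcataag
CXCL6 (chr4:73836568-73836627, plus strand): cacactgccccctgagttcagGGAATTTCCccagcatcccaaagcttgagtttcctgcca
CXCL1 (chr4:73869283-73869342, plus strand): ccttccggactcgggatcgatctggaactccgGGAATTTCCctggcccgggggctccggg
CXCL5 (chr4:73998728-73998787, minus strand): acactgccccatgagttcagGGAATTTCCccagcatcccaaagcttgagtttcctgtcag
CXCL3 (chr4:74038740-74038799, minus strand): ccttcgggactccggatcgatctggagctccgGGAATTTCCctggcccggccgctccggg
CXCL2 (chr4:74099246-74099305, minus strand): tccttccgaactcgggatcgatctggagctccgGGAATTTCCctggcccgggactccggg
IL6 (chr7:22727090-22727149, plus strand): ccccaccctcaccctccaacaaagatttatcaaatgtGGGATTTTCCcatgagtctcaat

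The motif GGAATTTCC, searched on both strands, was present in the promoters of all 6 clustered genes, on the strand of the gene and beginning 77 to 91 bases before the start. It was found in 0.461% of the 35116 promoters of the same length. That share is no test, since the motif was picked because these genes share it. The 6 matches are also not independent: the surrounding bases are nearly the same in CXCL1, CXCL2 and CXCL3, and in CXCL5 and CXCL6. A looser form of the motif, GGG followed by any 2 bases and then TTTCC, which overlaps the first in CXCL1, CXCL2, CXCL3, CXCL5 and CXCL6, was also present in IL6 and, on the opposite strand, in CCL20, and in 1.91% of all promoters. The IL1B promoter held neither form. The core GCGTG, bound by the aryl hydrocarbon receptor with its partner ARNT, was found on the opposite strand in CCL20 and CXCL5 and in 36.5% of all promoters. The AP-1 motif TGACTCA was found in CXCL8 only among the 9, and in 4.95% of all promoters. A match describes the letters of the promoter and not the binding of a factor. The shared motif did not go with a shared level: as shown next, CXCL5 and CXCL6 were near 0 in the same libraries in which CXCL8 and CXCL2 were readily measured.

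The genes were ordered by their FPKM. CCL2, CXCL2 and CXCL8 were the most abundant, with medians over the 40 libraries of 16.6, 13.7 and 8.16 FPKM. CXCL1, CCL20 and CXCL3 followed at 3.5, 2.91 and 2.69 FPKM. IL1B and IL6 stayed below 1.32 and 0.87 FPKM in every library. CXCL6 was at 0 in 32 libraries and CXCL5 in 25, and their highest values were 0.109 and 0.0533 FPKM. The ranges over libraries of neighbours in this order overlapped, also between CXCL8 (lowest 1.97 FPKM) and CXCL1 (highest 16.2 FPKM). A gene entered the limma fit when the variance of its FPKM was above 1 over the libraries of a table, and 6 of the 10 genes did so in both tables, CXCL8, CXCL1, CXCL2, CXCL3, CCL2 and CCL20. IL6, IL1B, CXCL5 and CXCL6 did not.

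**Figure D1:**
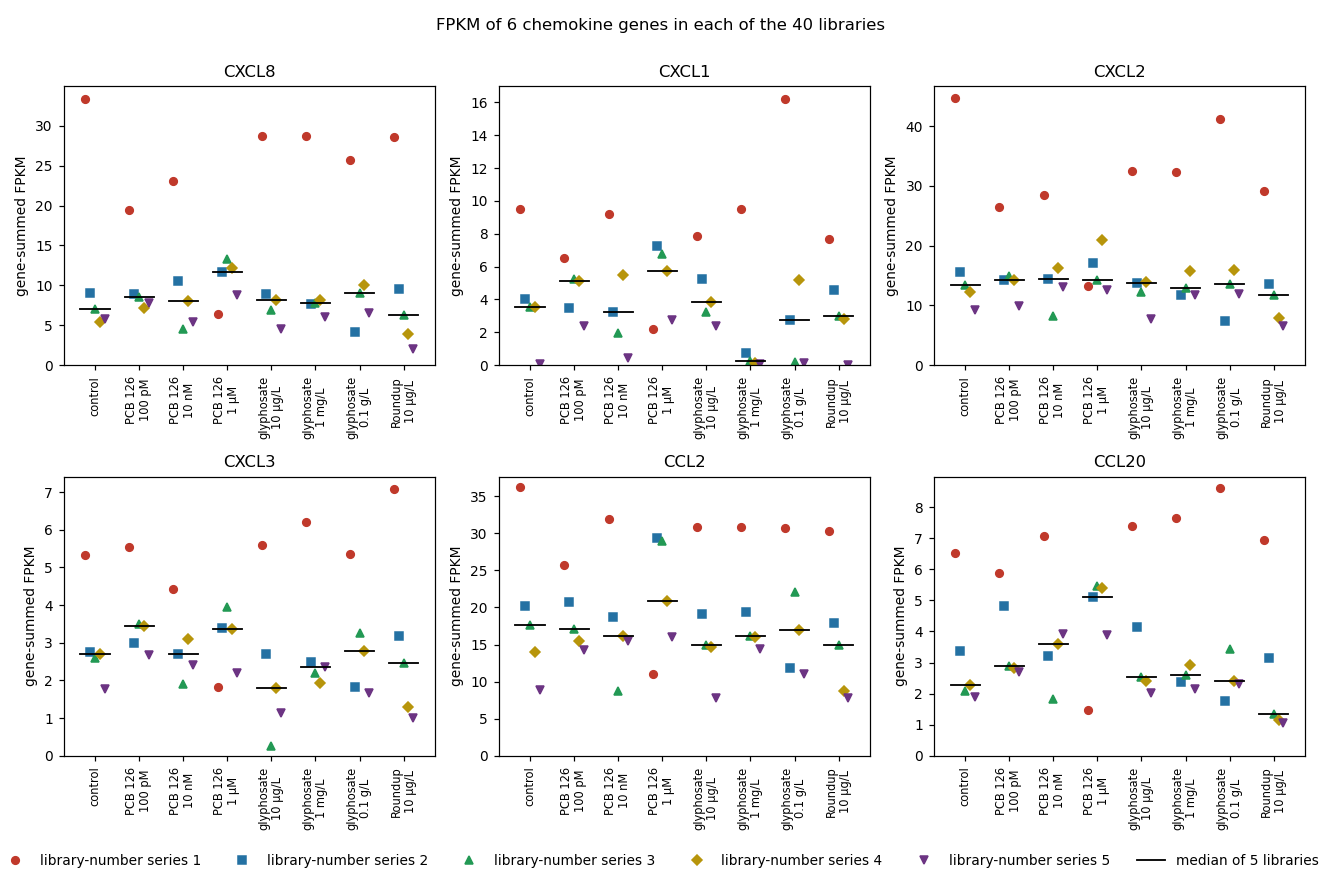
FPKM of the 6 more abundant chemokine genes (vertical axes, each panel with its own scale) in each library of the 8 groups (horizontal axis). Marker shape and colour give the library-number series and the black lines the median of 5 libraries. The library of series 1 was the highest in 7 of the 8 groups for each of the 6 genes, and not in the PCB 126 1 µM group.

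CXCL8, which encodes interleukin-8, the main human neutrophil chemokine, was at 33.4, 9.09, 7.02, 5.47 and 5.74 FPKM in control replicates 1 to 5. It was at 19.4, 8.95, 8.55, 7.17 and 7.80 FPKM at 100 pM PCB 126, and at 23.1, 10.6, 4.58, 8.05 and 5.45 FPKM at 10 nM. At 1 µM the values were 6.46, 11.6, 13.3, 12.2 and 8.76 FPKM. In each of the first 3 groups replicate 1 lay above all the others, while at 1 µM it was the lowest, and the groups overlapped. Glyphosate gave 28.7, 8.97, 6.87, 8.14 and 4.54 FPKM at 10 µg/L, and 28.7, 7.62, 7.73, 8.19 and 5.99 FPKM at 1 mg/L. At 0.1 g/L it gave 25.7, 4.16, 8.99, 10.1 and 6.54 FPKM, and Roundup gave 28.5, 9.53, 6.24, 3.95 and 1.97 FPKM. Replicate 1 was again the highest in all 4 herbicide groups, which overlapped with each other and with the control.

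None of the 6 tested genes passed the threshold (adjusted p under 0.05) for PCB 126 against control by limma on log2(FPKM + 1), at 100 pM, 10 nM or 1 µM. None had an unadjusted p under 0.05 either. Of the 9755 genes tested, 0% passed at 100 pM, 0.205% at 10 nM and 1.87% at 1 µM, and 1322 had an unadjusted p under 0.05 at 1 µM. At 1 µM the difference in log2(FPKM + 1) was 0.10 (SE 0.41) for CXCL8, 0.43 (SE 0.49) for CXCL1, -0.07 (SE 0.35) for CXCL2 and -0.01 (SE 0.26) for CXCL3. With all transcripts of its locus summed, that of CXCL1 was 0.03 (SE 0.33). It was 0.18 (SE 0.34) for CCL2 and 0.33 (SE 0.32) for CCL20. The adjusted p of the 6 genes by limma lay between 0.635 and 0.990. The 95% intervals reached from -0.78 to 1.43, so that differences of that size were not resolved. The median of the 6 differences was 0.14 at 1 µM, 0.14 at 100 pM and -0.04 at 10 nM, compared with medians over all tested genes of -0.26, 0.07 and -0.21.

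The median difference over all tested genes was thus below 0 at 10 nM and 1 µM in these values, which had not been scaled between libraries. With scaling by the 75th percentile the median over all genes at 1 µM was 0.06, and the differences of CXCL2 and CXCL3, which were below 0 without scaling, became 0.30 and 0.27. No gene of the 6 passed under that scaling alone. Neither the test across the 4 PCB 126 groups nor the trend over dose steps called any of the 6, where 1.39% and 3.7% of all tested genes were called.

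**Figure D2:**
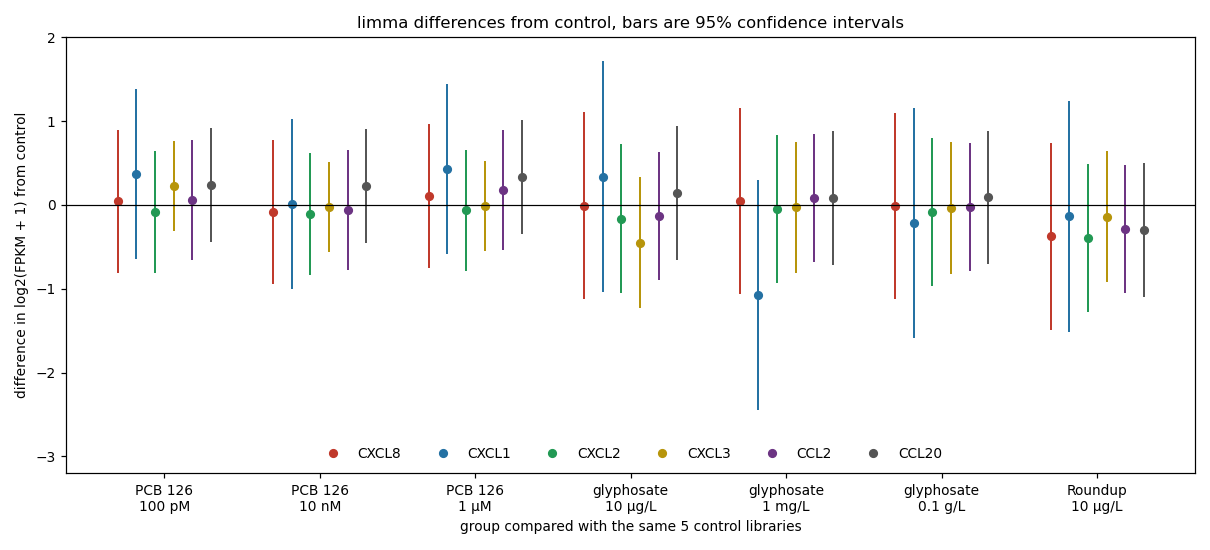
Difference in log2(FPKM + 1) from control (vertical axis) for the 6 tested genes in each exposed group (horizontal axis), with 95% confidence intervals from limma. All 42 intervals include 0, and the 7 groups share the same 5 control libraries.

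The 1 µM result was divided within the library-number series. In series 2, 3, 4 and 5 all 6 genes were higher at 1 µM than in the control library of the same series, and in series 1 all 6 were lower. CCL20, the CCR6 ligand, shows this most plainly. It was at 6.51, 3.39, 2.09, 2.28 and 1.89 FPKM in the control replicates and at 1.46, 5.10, 5.48, 5.41 and 3.89 FPKM at 1 µM. Replicates 2 to 5 at 1 µM all lay above control replicates 2 to 5, and replicate 1 at 1 µM lay below every control library. Within series the difference in log2(FPKM + 1) was -1.61, 0.48, 1.07, 0.97 and 0.76. CCL2, the monocyte chemokine MCP-1, was at 36.2, 20.2, 17.6, 13.9 and 8.93 FPKM in the control and at 11.02, 29.4, 29.0, 20.8 and 16.0 FPKM at 1 µM. Its differences within series were -1.63, 0.52, 0.69, 0.55 and 0.78. For CXCL8 they were -2.20, 0.33, 0.84, 1.02 and 0.53.

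Both libraries behind the series 1 difference stood out: control replicate 1 held the highest value of the control group for all 6 genes, and 1 µM replicate 1 was among the libraries with a low 75th percentile. Without 1 µM replicate 1 the limma difference of CCL20 was 0.59 (adjusted p = 0.636, limma) and that of CCL2 was 0.38 (adjusted p = 0.966, limma). Without control replicate 1 they were 0.56 (adjusted p = 0.628, limma) and 0.43 (adjusted p = 0.735, limma). None of the 6 genes passed when any 1 library was left out.

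In the PCB 126 comparisons, calls appeared only where several choices were changed together, in 3 of 5 settings added after the values had been seen. With 75th-percentile scaling and the library-number series as a block, CCL2 was called at 1 µM with a difference of 0.55 (adjusted p = 0.0349, limma), where 10.9% of all tested genes were called and 6.5% were called higher. Without the libraries of low 75th percentile and with the block, CCL2 and CCL20 were called at 0.52 and 0.79, the latter with adjusted p = 0.0226 (limma), against 7.05% of all genes called and 2.28% called higher. With all 3 changes, 5 of the 6 genes were called higher, all but CXCL2, at 0.75 for CXCL8, 0.76 for CXCL1, 0.40 for CXCL3, 0.71 for CCL2 and 0.92 for CCL20. In that setting 8.84% of all genes were called and 4.51% were called higher. Settings without the low libraries leave out 1 µM replicates 1 and 5. Replicate 1 was the only 1 µM library below the control of its series in all 6 genes. The 1 µM libraries kept, replicates 2 to 4, lay above theirs in all 6. For CXCL1 in series 2 to 4, named transcripts gave within-series differences of 0.71, 0.77 and 0.58. The whole locus gave 0.32, 0.61 and 0.37. For the trend over dose steps the same 3 settings called 1, 2 and 4 of the 6 genes, where 13%, 8.16% and 10.6% of all genes were called. The block alone, the scaling alone and the removal of the low libraries alone each called 0 of the 6. These calls therefore depend on the setting, and whether the low library or the exposure accounts for the series 1 difference was not tested.

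**Figure D3:**
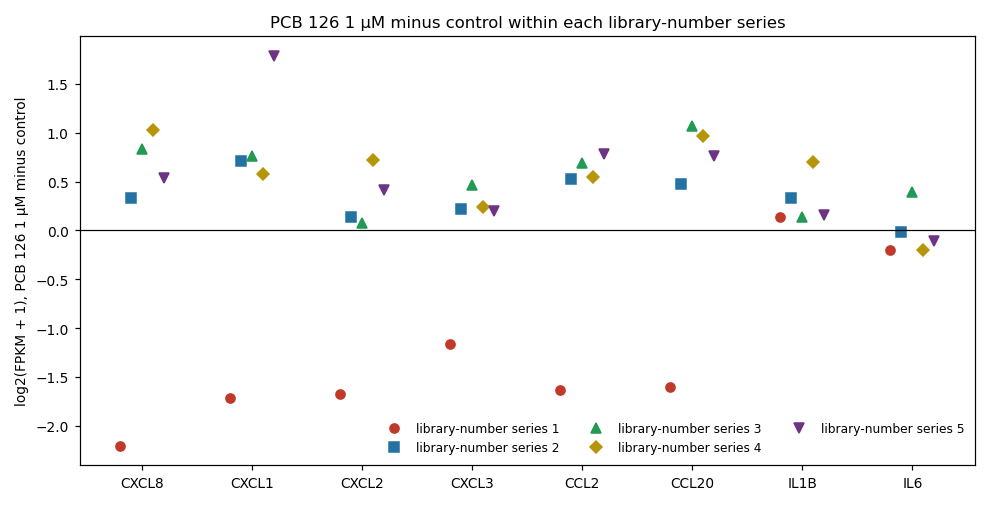
Difference in log2(FPKM + 1) between the PCB 126 1 µM library and the control library of the same library-number series (vertical axis) for 8 genes (horizontal axis). For the 6 chemokines the series 1 point lies below 0, at -2.20 to -1.17, and the points of the other 4 series lie above 0.

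Unscaled sums of some cell type markers differed at 1 µM, where the median difference of all tested genes was -0.26. Few single markers were called there by limma, and each call was lower. These were 1 of 6 tested hepatocyte, 0 of 3 biliary, 1 of 6 mesenchymal, 0 of 2 leukocyte and 0 of 1 endothelial markers. Of all tested genes 1.87% were called there. These counts depend on the setting. SPP1, a biliary marker, was called lower with 75th-percentile scaling, quantile normalization, the block, and without the low libraries. KDR, an endothelial marker, was called lower in these settings except quantile normalization. The hepatocyte markers ALB and TF were called lower in some of them. The scalings called 8.6% and 11.1% of all genes. The summed FPKM of 6 hepatocyte markers (ALB, APOA1, TTR, TF, SERPINA1 and CYP3A4) was 5412 to 13251 at 1 µM, compared with 13248 to 19372 in the control. The sum of 6 biliary markers was 122 to 215, compared with 224 to 452, and that of 6 mesenchymal markers was 50.8 to 190, compared with 41.02 to 91.8. KRT19, the most abundant biliary marker, was at 303 ± 85.6 FPKM in the control and 164 ± 39.2 at 1 µM. SPP1 was at 47.8 ± 11.3 and 21.9 ± 6.1 FPKM. SPP1, KDR, ALB and TF also passed, lower, in the trend over dose steps. The means of single mesenchymal markers differed in direction: LUM was at 50.2 ± 14.0 FPKM in the control and 115 ± 57.9 at 1 µM, and COL3A1 at 12.5 ± 3.63 and 0.576 ± 0.274 FPKM. The part of these shifts in the chemokine values was not tested, and fewer cells of a type cannot be told apart from less RNA per cell. Of 8 leukocyte markers, MPO was at 0 in all 40 libraries, CD3E in 38, and PTPRC, the pan-leukocyte antigen CD45, did not exceed 0.0428 FPKM. The leukocyte sum was 5.19 to 10.2 FPKM at 1 µM and 4.29 to 14.0 in the control, made up mainly of LYZ, CD14 and CD68. Of 4 endothelial markers, CDH5 was at 0 in 37 libraries, and their sum was 0.595 to 1.247 FPKM at 1 µM against 0.87 to 5.22 in the control. KDR was at 2.27 ± 1.63 FPKM in the control and 0.556 ± 0.170 at 1 µM. PECAM1 was at 0.179 ± 0.131 and 0.283 ± 0.159 FPKM.

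Glyphosate and Roundup did not give a call in any of the 6 tested genes. By limma, 0% of the 9533 genes tested in the herbicide table passed in any of the 4 comparisons with control, in Roundup against glyphosate at 10 µg/L or across the 5 groups, and none of the 6 had an unadjusted p under 0.05. For glyphosate the 6 differences lay between -0.45 and 0.34 at 10 µg/L, between -1.07 and 0.09 at 1 mg/L, and between -0.21 and 0.09 at 0.1 g/L. For Roundup all 6 were below 0, at -0.40 to -0.14, with a median of -0.29 where the median of all tested genes was -0.18. Their 95% intervals all included 0, the widest reaching from -1.50 to 1.23. Roundup replicates 4 and 5 were libraries of low 75th percentile and held the lowest 2 values of the group for CXCL8, CXCL2, CXCL3, CCL2, CCL20 and CXCL1. Without those libraries in the herbicide table the difference of CXCL8 for Roundup was 0.18, compared with -0.37 with them.

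The pair of herbicide treatments at the same labelled dose, 10 µg/L, was compared directly. Roundup against glyphosate gave differences in log2(FPKM + 1) from -0.47 for CXCL1 to 0.31 for CXCL3, with adjusted p = 0.974 for each of the 6 genes by limma. With all transcripts of each locus summed these were -0.17 and 0.14. The interval for CXCL8 ran from -1.47 to 0.73 and that for CCL20 from -1.22 to 0.35, so an equal response was not shown.

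CXCL1 had the largest herbicide difference, and it followed the naming of transcripts. At 1 mg/L glyphosate the transcripts named CXCL1 were at 9.51, 0.734, 0.271, 0.148 and 0.0774 FPKM, compared with 9.48, 4.01, 3.56, 3.53 and 0.0845 FPKM in the control. Replicates 2, 3 and 4 were thus far lower than their control counterparts, and limma gave -1.07 (SE 0.67, unadjusted p = 0.118, adjusted p = 0.963). The main CXCL1 transcript, ENST00000395761, was listed at 0 in 9 of the 40 libraries, among them 4 of the 5 at 1 mg/L. In these 9 libraries, assembled transcripts of the same locus without a gene name held 1.72 to 5.84 FPKM, while the named ones held 0 to 0.734. When all transcripts of the locus were summed, the 1 mg/L group was at 3.16 to 13.7 FPKM (median 4.25) and the control at 1.81 to 15.5 FPKM (median 4.58). The difference was then -0.04 (SE 0.38). The unnamed transcript of highest FPKM, which runs from position 73869010 to 73871361 of chromosome 4, spans the named one, from 73869404 to 73871242. The single low CXCL3 value, 0.263 FPKM in replicate 3 of glyphosate at 10 µg/L, was likewise in the library where an unnamed transcript of that locus was at its highest, 1.48 FPKM.

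**Figure D4:**
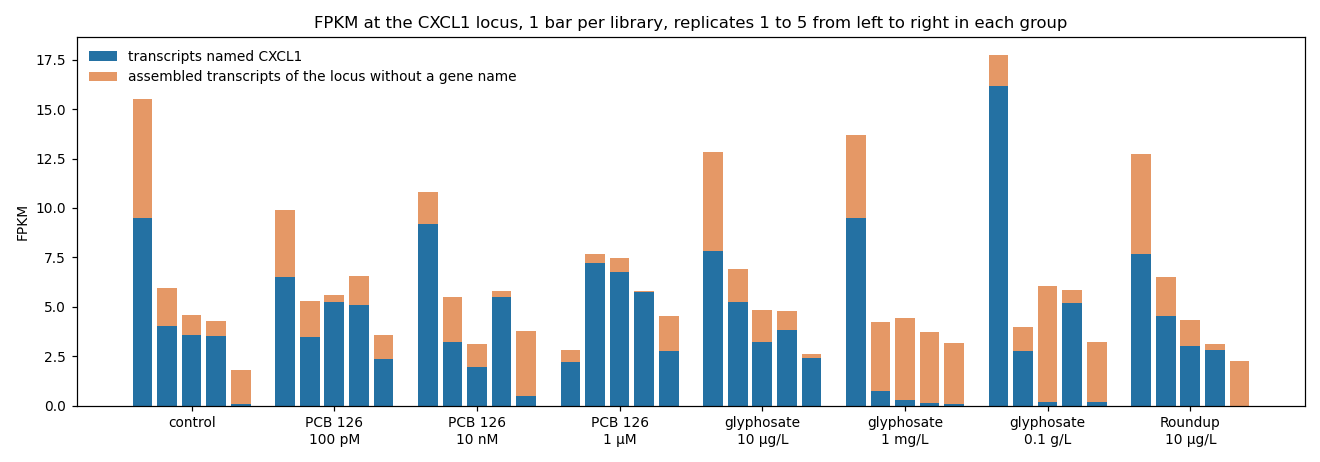
FPKM at the CXCL1 locus (vertical axis) in each of the 40 libraries, grouped by exposure (horizontal axis), with named transcripts in blue and assembled transcripts without a gene name in orange. Of the 5 bars at glyphosate 1 mg/L, 4 are almost wholly orange, and their full heights lie within the range of the control bars.

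IL1B, which encodes the inflammasome product IL-1β, was at 0.864, 0.844, 1.04, 0.188 and 0.490 FPKM in the control and at 1.05, 1.31, 1.24, 0.933 and 0.659 FPKM at 1 µM PCB 126. The groups overlapped, although every series had the higher value at 1 µM. The difference in mean log2(FPKM + 1) was 0.29 (2-sided exact permutation test, p = 0.111). With 75th-percentile scaling the groups no longer overlapped, and the difference was 0.50 with p = 0.00794, the smallest the exact test of 5 against 5 can give. That p is 1 of 32 exact tests and is not adjusted for their number. Under the same scaling limma called 8.6% of all tested genes at 1 µM. Without scaling, the 0.111 of IL1B at 1 µM was the smallest p of the 32 exact tests. These were run on IL1B, IL6, CXCL5 and CXCL6, and none gave a p under 0.05.

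IL6, the cytokine that drives the hepatic acute-phase response, was at 0.575, 0.474, 0.0962, 0.508 and 0.105 FPKM in the control. At 1 µM PCB 126 it was at 0.370, 0.453, 0.434, 0.312 and 0.0242 FPKM, and with Roundup at 0.869, 0.455, 0.0867, 0.0407 and 0.353 FPKM. These ranges overlapped throughout, and the control libraries alone spanned from 0.0962 to 0.575 FPKM. CXCL5 and CXCL6, neutrophil chemokines of the same cluster, were listed at 0 in most libraries of every PCB 126 group and gave nothing to compare.

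**Figure D5:**
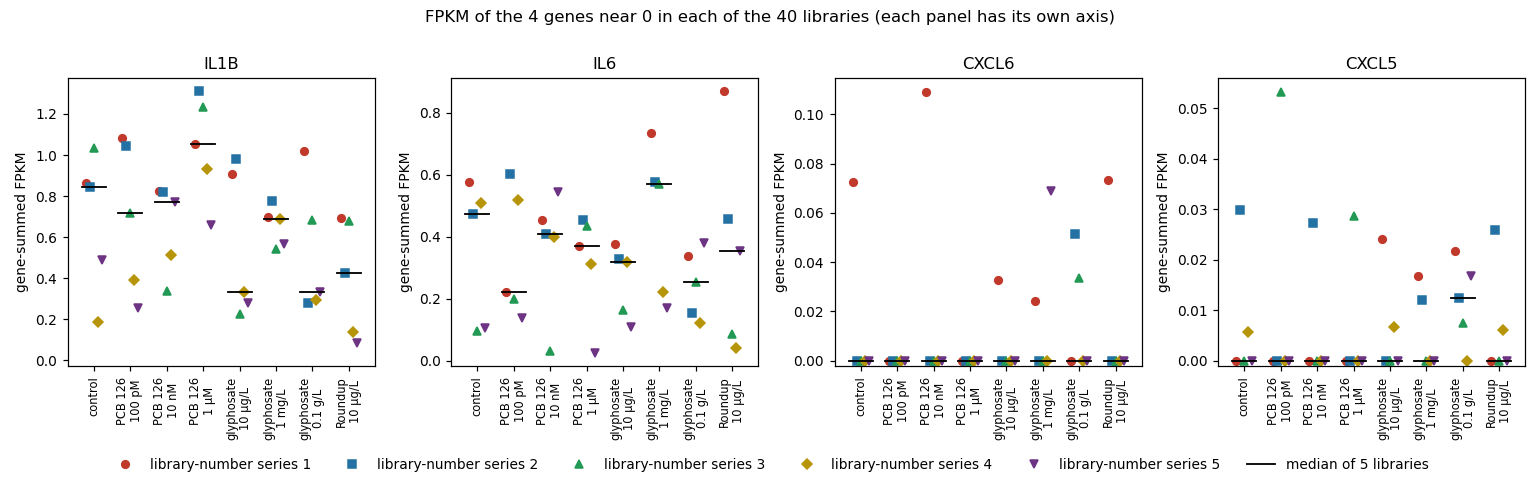
FPKM of IL1B, IL6, CXCL6 and CXCL5 (vertical axes, each panel with its own scale) in each library of the 8 groups (horizontal axis), with the median of 5 libraries as a black line. IL1B reached at most 1.31 FPKM, in the 1 µM group, and CXCL5 at most 0.0533 FPKM.

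The 6 more abundant genes differed more between library-number series than between exposures. CXCL8 in series 1 was at 19.4 to 33.4 FPKM in 7 groups and at 6.46 FPKM at 1 µM PCB 126, while in series 5 it was at 1.97 to 8.76 FPKM. The ratio of replicate 1 to the median of the other 4 libraries of its group was 2.38 to 5.60 for CXCL8 in those 7 groups and 0.543 at 1 µM. For CCL20 it was 2.06 to 5.56 and 0.278, and for CCL2 it was 1.58 to 2.56 and 0.442. In the herbicide table the series accounted for 85.1% of the sum of squares of CXCL8 in log2(FPKM + 1) and the exposures for 2.97%, compared with medians over all tested genes of 39.5% and 9.92%. The series shares of the other 5 genes lay between 65.4% for CXCL1 and 84.0% for CXCL2. In the PCB 126 table they lay between 18.0% for CCL20 and 57.8% for CXCL2, where the median gene was at 31.6%. There CCL20 and CCL2 (31.1%) were not above the median gene. The exposures accounted for 0.63% for CXCL2 to 9.26% for CXCL3 in that table, compared with 15.3% for the median gene. These shares are descriptions, since the pattern was seen in the same values.

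The genes most like CXCL8 over the libraries were then listed. In the herbicide table, over 25 libraries, the 5 tested genes outside the group with the highest Pearson r were EGR1 (0.97), IER2 (0.96), GADD45B (0.96), JUNB (0.96) and FOS (0.96). EGR1, FOS, JUNB and IER2 are induced within minutes by growth factors and stress, and GADD45B is a stress and NF-κB responsive gene. Among the 5 other tested members, CXCL2 had the highest r at 0.97 and CXCL1 the lowest at 0.69. In the PCB 126 table, over 20 libraries, PLA2G2A, a secreted phospholipase, came first (0.92), followed by LYZ, JUNB, CU639417.2 and GADD45B. These libraries share the series 1 values: EGR1 was at 61.6 to 87.7 FPKM in series 1 and 22.8 at 1 µM replicate 1, compared with 11.3 to 29.9 FPKM in the other 4 series. No p is given, because the 5 control libraries stand in both tables and the libraries of a series are not independent.

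The other genes of the pathway were counted by list. Of 10 receptor genes, 4 were tested in each table and 0 passed in any comparison. IL6ST, the shared signalling chain of the IL-6 family, was at 44.2 ± 14.2 FPKM (SD, n = 5) in the control and IL6R at 9.60 ± 3.50, while the receptors of the chemokines were near absent, CXCR1 and CCR6 being at 0 in 39 of 40 libraries. Of 15 NF-κB factors and feedback genes, 13 were tested and 0 passed in any comparison. SOD2, the mitochondrial superoxide dismutase, was the most abundant at 115 ± 77.5 FPKM in the control, and TNIP1, which restrains NF-κB signalling, was at 30.6 ± 8.37. At 1 µM their differences were -0.20 (SE 0.35) and 0.38 (SE 0.32). With 75th-percentile scaling 2 of the 13 were called higher at 1 µM, NFKB2 at 0.69 and NFKBIE at 0.78, and quantile normalization called the same genes. Under these scalings 8.6% and 11.1% of all tested genes were called. Of 10 AP-1, C/EBP and immediate early genes all 10 were tested and 0 passed. JUND and EGR1 were the most abundant, with differences at 1 µM of 0.39 (SE 0.25) and -0.61 (SE 0.42). Either scaling called 5 of the 10 higher at 1 µM, namely ATF3, FOSL1, FOSL2, JUN and JUND, at 0.64 to 1.13 with the 75th percentile, and FOSL1 also at 10 nM. Without the libraries of low 75th percentile ATF3 and JUND were called. The counts of 0 for both lists thus depend on the setting, and no receptor was called under these settings.

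Of 21 other chemokines only CXCL16 and CX3CL1 were tested, and 0 passed against control. CX3CL1, the membrane-bound chemokine fractalkine, was at 12.4 ± 3.04 FPKM in the control and 5.99 ± 1.76 FPKM at 1 µM, a difference of -0.95 (adjusted p = 0.0638, limma), and it passed in the trend over dose steps at -0.35 a step (adjusted p = 0.0161, limma). Single changes called it lower at 1 µM, at -0.95 with the block (adjusted p = 0.0188, limma), -0.62 with 75th-percentile scaling (adjusted p = 0.00381, limma) and -0.72 with quantile normalization (adjusted p = 0.000392, limma), and both scalings also did so at 10 nM. Of 15 other cytokines 6 were tested in the PCB 126 table and 5 in the herbicide table, and 0 passed. IL32 was the most abundant at 101 ± 43.1 FPKM, with a difference at 1 µM of 0.97 (adjusted p = 0.128, limma), called with the block (adjusted p = 0.0395, limma) and at 1.36 with 75th-percentile scaling (adjusted p = 0.0166, limma). CSF1, the next most abundant, was at 27.3 ± 10.7 FPKM in the control and 23.3 ± 7.61 at 1 µM. TNF was at 0 in 36 of 40 libraries. Of 10 genes of IL-6 and STAT3 signalling 9 were tested, and FGB, the fibrinogen β chain made by hepatocytes under IL-6, fell at 1 µM. It was at 1559 ± 477 FPKM in the control and 638 ± 255 FPKM at 1 µM, without overlap, a difference of -1.37 (SE 0.33, adjusted p = 0.0259, limma). The same direction was seen in TTR (transthyretin), a hepatocyte marker that the acute phase lowers, at -1.62 (adjusted p = 0.00797, limma). LBP, another acute-phase gene, did not pass, with a difference of -0.37 (SE 0.59). In the same comparison 4 aryl hydrocarbon receptor targets rose, CYP1A1 by 6.61, CYP1A2 by 6.16, TIPARP by 3.21 and CYP1B1 by 2.51 in log2(FPKM + 1), and COL3A1, a fibrillar collagen, fell by 3.07.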

How the data were processed

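RNA from HepaRG cultures had been depleted of ribosomal RNA and made into directional libraries. The authors aligned the reads to GRCh38 with HISAT2 and ran StringTie, guided by Ensembl release 89, to assemble transcripts and estimate their abundance. They deposited FPKM for 234960 transcripts in 2 tables without scaling between libraries or pooling. In some deposited columns, treated as a score, 10 values below 0 were set to 0. The same 5 control libraries stand in both tables.

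FPKM were summed by gene name, and log2(FPKM + 1) of genes with a variance of FPKM above 1 was fitted with limma 3.58.1 (R 4.3.3), all groups of a table together. P-values were adjusted over all tested genes by Benjamini-Hochberg, threshold 0.05. Differences are in log2(FPKM + 1), so changes of genes at low FPKM are understated. Genes failing the filter were compared by 2-sided exact permutation tests (252 splits, scipy). The fit was first tested on simulated data. FPKM are not counts, so no counting interval is given, and read depth is not given in these files. Alternatives were another pseudocount, other filters, scalings, a replicate block, array weights, 2-group fits, the most abundant transcript and leaving out each library, and 5 settings chosen after seeing the data (locus sums, removal of the low libraries, and 3 combinations).

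The members and gene lists were chosen with earlier results of these data known. Named genes were all 10 members, from each list every gene called against control and the 2 most abundant in the control, and the 5 genes most like CXCL8. The calls of TF and the trends of CX3CL1, SPP1, KDR and ALB were named after their values were seen. So were NFKB2, NFKBIE, ATF3, FOSL1, FOSL2, JUN, CD68, MPO, CD3E, PTPRC, CDH5, TNF, CXCR1 and CCR6.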

Additional observations from a re-analysis of the deposited data

Results flagged for a closer look

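The highest library lay far from the other 4 of its group, by Dixon's ratio of the gap to the range (critical value 0.71 for 5 libraries), in 16 of the 48 combinations of the 6 more abundant genes with the 8 groups. In all 16 it was replicate 1, the library of series 1. Chance flags about 1 in 20 groups of normally distributed values. The ratio was taken on FPKM without a log transformation, so that rate may not hold here. The 6 genes of a library are also not independent. For CXCL8 the ratio was 0.871 in the control, 0.855 at 100 pM PCB 126, 0.817, 0.903 and 0.725 at the 3 glyphosate doses from low to high, and 0.715 with Roundup. For CXCL2 it was 0.824 in the control and 0.753, 0.803 and 0.746 at the 3 glyphosate doses in the same order. For CXCL3 it was 0.721 in the control, 0.71 at 100 pM PCB 126 and 0.869 at 1 mg/L glyphosate. For CXCL1 it was 0.93 at 1 mg/L glyphosate, a group whose other 4 libraries list the main transcript at 0, and for CCL20 it was 0.86 at 1 mg/L and 0.757 at 0.1 g/L glyphosate. No gene was flagged in the PCB 126 10 nM and 1 µM groups, and CCL2 was flagged in none. The cause of the series 1 values was not tested.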

How the results depend on the processing

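The count of called members was 0 in all 11 comparisons under the planned single changes, array weights excepted (5 to 10 members were tested, depending on the filter and transcript choice), and when each library was left out in turn (0 to 0 in every comparison). Array weights called 1 member, CCL20, for Roundup against control, for Roundup against glyphosate and across the herbicide groups. Across the herbicide groups, array weights called 5527 of the 9533 tested genes, so the call is not particular to CCL20. That fit gave Roundup replicate 3 a weight of 30.4, where the other libraries of its group had 0.16 to 0.439. Of 5 settings added after seeing the data, the 3 that combine choices moved the PCB 126 counts. At 1 µM, 1 member was called with 75th-percentile scaling and the block, 2 without the libraries of low 75th percentile and with the block, and 5 with all 3 changes. For the trend over dose steps these counts were 1, 2 and 4, and across the 4 groups all 3 changes gave 3. In that last fit 568 of the 9755 tested genes were called. The shares of all genes for the 1 µM and trend counts are given with the calls above. Removing the low libraries alone, or summing each locus, gave 0.

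The labels do not say what a library number shares, and the main fit did not treat the libraries as paired. Deviations of same-numbered libraries from control and exposed group means correlated at -0.05 to 0.185 over 35 pairs, 12 of them over 0.1. Of the 35 exposed libraries, 23 correlated best with the control of their own number, among 5 controls. Same-numbered libraries thus shared part of their spread, which the main fit leaves in its SE. This is read from the data and not from the labels. The replicate block alone left the member counts at 0. Among the exact tests, 75th-percentile scaling gave 1 p under 0.05 in place of 0 (IL1B at 1 µM).

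Of 908 alternative values of the members' differences, 160 had another sign than the reported one. Of these, 139 moved by less than the reported SE with neither value called. The other 21 are as follows. For CXCL2 at 1 µM the difference was 0.30 with scaling, 0.30 with scaling and block, and 0.37 with all 3 changes, and its trend was 0.12, 0.12 and 0.12. For CXCL3 at 1 µM it was 0.27, 0.27 and 0.40 in the same order, 0.31 with quantile normalization and 0.27 without the low libraries and with the block. The CXCL3 trend was 0.085, 0.085, 0.11, 0.096 and 0.062 in that order. CXCL8 for Roundup was 0.18 without the low libraries. Leaving out 1 library gave CXCL2 -0.25 to 0.29 at 1 µM, -0.34 to 0.24 at 10 nM and -0.28 to 0.27 at 100 pM, and CXCL8 -0.41 to 0.35 at 10 nM. The cause of these turns was not tested. Read depth is not given in these files, and 5 libraries a group limit all values.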
